A study of Mus musculus with 3 samples.

Results

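Retnla encodes resistin-like alpha, also called FIZZ1 or RELMα, a small secreted protein. It was described in single-cell RNA libraries of macrophages from the mouse sciatic nerve. It was chosen as 1 gene, the row Retnla of each library's count table, out of 27998 genes. The libraries came from C57BL/6 mice, an inbred strain, and there was 1 library per group: macrophages from uninjured nerve (the steady state), from nerve 1 day after a crush injury, and from nerve 5 days after a crush injury. A crush severs the axons and leaves the nerve's outer sheath in place, and macrophages then gather in the degenerating nerve. The sources used here do not give the age and sex of the mice, the number of animals pooled or the sort that isolated the cells. The other assays of the study were not analysed here.

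Resistin-like alpha belongs to the resistin family of cysteine-rich secreted proteins. In mouse macrophages its gene is a classical target of interleukin 4 (IL-4) and interleukin 13 (IL-13), acting through the receptor chain Il4ra and the transcription factor Stat6 together with C/EBP proteins, and it is widely used as a marker of alternative activation. Tissue-resident macrophages of several organs are also known to express it without a deliberate IL-4 stimulus.

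The tables held 731, 2796 and 2059 cell barcodes for uninjured nerve, day 1 and day 5, of which 728, 2793 and 2059 passed the filter on genes and mitochondrial RNA. These cells had 1656510, 7963091 and 5524496 unique molecular identifiers (UMIs, short barcodes by which copies of 1 RNA molecule are counted as 1), with a median per cell of 2238.5, 2555 and 2473. All 10 general macrophage markers were detected in each library, with a summed level between 27522 and 46825 CPM (the UMIs of a gene per 1000000 UMIs of the same cells). The defining markers of T cells, NK cells, mast cells, eosinophils and adipocytes were absent or summed to at most 8.45 CPM. Other lists were higher, with dendritic cell markers at 171 to 411 CPM, fibroblast markers at 116 to 235 CPM, Schwann cell markers at 56.6 to 318 CPM, neutrophil markers at 39.1 to 127 CPM and B cell markers at 11.1 to 53.1 CPM. Cells with UMIs of at least 2 markers of another cell type held 5.02% of the Retnla UMIs in uninjured nerve, 0.149% at day 1 and 2.94% at day 5. Without them the Retnla level was 7068, 88.2 and 1816 CPM in the same order. Whether these cells were of another type was not tested. Libraries shared 2 barcodes (day 1 and uninjured nerve), 3 (day 5 and uninjured nerve) and 11 (day 5 and day 1). With 1 library per group no difference between groups could be tested, so each comparison is between libraries. The intervals given are 95% intervals for counting error only, and they say nothing about the spread between animals. Those of levels and of ratios also leave out the spread between cells.

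The gene lies on chromosome 16 at chr16:48842609-48844461 of build GRCm38 (mm10), on the plus strand, with 4 exons in 1 annotated transcript. Its family neighbours are Retnlb, 23.7 kb before it, and Retnlg, 28.1 kb after it, both on the same strand, while Retn, the gene of the fat hormone resistin, is on chromosome 8. The promoter windows of Retnla and Retnlg are shown because these are neighbouring genes of similar sequence, of which Retnla was abundant in these cells and Retnlg had almost no UMI. Each window holds 250 bases before and 50 bases after the RefSeq start site, chr16:48842359-48842658 and chr16:48872358-48872657 of GRCm38.p6, plus strand. Capitals mark matches to a STAT6-type motif (TTC and GAA with any 4 bases between them), a C/EBP-type motif (TTGCNNAA) and the TATA motif (TATAAA), searched on both strands.
Retnla: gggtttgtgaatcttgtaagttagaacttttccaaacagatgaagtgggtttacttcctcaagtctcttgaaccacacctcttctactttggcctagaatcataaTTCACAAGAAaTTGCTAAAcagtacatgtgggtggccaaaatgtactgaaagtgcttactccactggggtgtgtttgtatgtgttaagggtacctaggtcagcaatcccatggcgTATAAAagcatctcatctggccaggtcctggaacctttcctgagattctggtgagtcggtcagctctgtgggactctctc
Retnlg: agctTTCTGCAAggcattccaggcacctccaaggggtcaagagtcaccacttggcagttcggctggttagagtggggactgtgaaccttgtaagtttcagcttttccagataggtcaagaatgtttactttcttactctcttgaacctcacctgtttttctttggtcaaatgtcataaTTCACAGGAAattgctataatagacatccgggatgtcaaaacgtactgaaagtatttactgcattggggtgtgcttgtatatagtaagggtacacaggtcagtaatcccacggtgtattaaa

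In the Retnla window the STAT6-type match TTCACAAGAA began 145 bases before the start site, the C/EBP-type match TTGCTAAA followed it at 134 bases before the start, and TATAAA stood 30 bases before the start. The Retnlg window held a STAT6-type match, TTCACAGGAA, 72 bases before its start, and a C/EBP-type match on the minus strand 246 bases before it, and no TATAAA. The stretch ggtcagcaatcccatggcg just before TATAAA in Retnla resembles ggtcagtaatcccacggtg at the end of the Retnlg window, after its annotated start. The distances thus depend on where each start is annotated and do not show a different arrangement. None of the motifs overlapped another. Of 32851 mouse promoter windows of the same length, 6.95% held the STAT6-type motif, 10.8% the C/EBP-type motif and 13.6% TATAAA, so each match by itself is common. A match describes these letters and is not evidence of binding.

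Retnla was the only member of its family with more than a handful of UMIs. It had 11495 UMIs in uninjured nerve, 671 at day 1 and 9825 at day 5. Retnlb had 0 UMIs in all 3 libraries, which allows up to 1.81, 0.377 and 0.543 CPM in uninjured nerve, day 1 and day 5, the level of 3 UMIs. Retn had 4 UMIs at day 1 and 0 in the others, and Retnlg had 1 UMI at day 5 and 0 in the others. The Retnla and Retnlg transcripts were 82.5% identical, with a longest shared run of 49 bases, so reads of the pair could in part be assigned to the wrong gene, and how far this happened was not tested. Retnlb and Retn were 58.2% and 40.7% identical to Retnla.

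The level of Retnla was 6939 CPM in uninjured nerve (6813 to 7067), 84.3 CPM at day 1 (78.0 to 90.9) and 1778 CPM at day 5 (1743 to 1814). Uninjured nerve was highest, day 5 second and day 1 lowest, and no 2 of these intervals overlapped. Retnla alone was 0.694% of all UMIs in uninjured nerve, 0.00843% at day 1 and 0.178% at day 5. At day 1 the level was 82.4-fold lower than in uninjured nerve (76.2 to 89.2), a log2 ratio of -6.36. Among the 2765 genes that reached 50 CPM in 1 of the libraries compared, 7 had a lower ratio, and 5.06% were at least 4-fold lower. The median log2 ratio over these genes was 0.25.

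At day 5 the level was 21.1-fold higher than at day 1 (19.5 to 22.9), a log2 ratio of 4.40. This was the highest ratio of 2541 genes, of which 0.826% were at least 4-fold higher. Against uninjured nerve, day 5 was 3.90-fold lower (3.798 to 4.01), a log2 ratio of -1.96, with 78 of 2585 genes lower still and 9.56% at least 2-fold lower. The day 1 value rested on few cells. The 10 cells with the most Retnla held 62.7% of that library's Retnla UMIs, and without the 10 highest cells of each library the levels were 5815 CPM in uninjured nerve, 31.5 CPM at day 1 and 1458 CPM at day 5.

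Retnla was very unevenly spread over cells, and in every library most of its RNA came from a minority. A Retnla UMI was found in 429 cells of uninjured nerve (58.9%, 55.3 to 62.5), in 85 cells at day 1 (3.04%, 2.44 to 3.75) and in 675 cells at day 5 (32.8%, 30.8 to 34.9). The positive cells had a mean of 26.8 UMIs in uninjured nerve, 7.89 at day 1 and 14.6 at day 5, while their medians were only 3, 2 and 1. The highest cell had 281 UMIs in uninjured nerve, 95 at day 1 and 229 at day 5. In the cell richest by share, Retnla made up 9.80% of all its UMIs in uninjured nerve, 3.99% at day 1 and 13.3% at day 5. By share of its own RNA, the richest day 5 cell was thus above the richest cell of uninjured nerve, although the library's level was lower. Each is a single cell, out of 2059 at day 5 and 728 in uninjured nerve. Among cells with at least 10 Retnla UMIs the median share was 2.13% at day 5 and 2.32% in uninjured nerve.

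**Figure D1:**
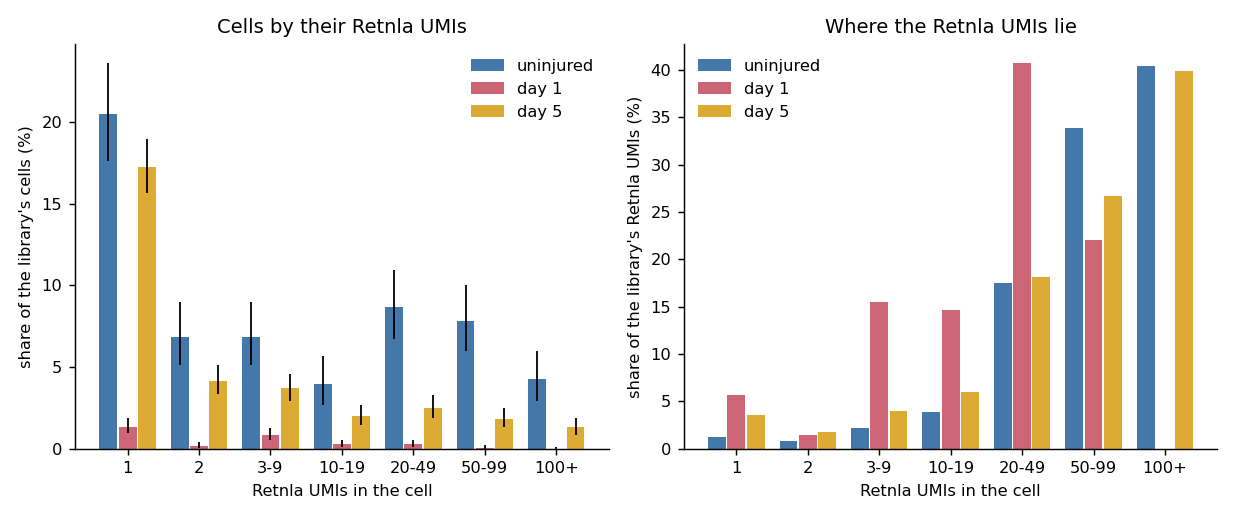
Left, share of each library's cells (%) by the number of Retnla UMIs in the cell, with exact 95% binomial intervals as lines; cells without a Retnla UMI are not drawn. Right, share of the library's Retnla UMIs (%) that lies in those cells. Cells with 1 UMI are the most frequent positive cells in each library, while cells with at least 10 UMIs hold 95.6%, 77.3% and 90.7% of the UMIs in uninjured nerve, day 1 and day 5.

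Cells with 1 UMI were 20.5% of the cells in uninjured nerve, 1.36% at day 1 and 17.2% at day 5, and held only 1.30%, 5.66% and 3.61% of the Retnla UMIs. Whether detections of this size come from free RNA was not tested. Cells that carried UMIs of at least 2 markers of another cell type were positive in 62.9% of 35 cells in uninjured nerve, 1.14% of 88 cells at day 1 and 32.4% of 74 cells at day 5. Their median depths were 2646, 4108 and 3885 UMIs. Of these cells, 9 (25.7%) in uninjured nerve, 0 at day 1 and 6 (8.11%) at day 5 had at least 10 Retnla UMIs. As 726 of the 728 cells of uninjured nerve and 2054 of the 2059 day 5 cells carried at least 2 general macrophage markers, they cannot serve as cells that lack the gene, and no background level could be set. Among cells with at least 1000 UMIs, thinned to that number (638, 2496 and 1777 cells, with 90, 297 and 282 left out), the share was 43.3% in uninjured nerve, 2.003% at day 1 and 20.3% at day 5.

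Cells rich in Retnla were taken as those with at least 10 UMIs. This is a range and not a cell type, and its lower limit was set after the distribution had been seen. It held 180 cells in uninjured nerve (24.7%, 21.6 to 28.0), 18 cells at day 1 (0.644%, 0.382 to 1.02) and 158 cells at day 5 (7.67%, 6.56 to 8.91). In uninjured nerve 9 cells lay within 2 UMIs below the limit and 4 within 2 UMIs above, against 1 and 6 at day 1 and 16 and 11 at day 5. Median depth was 2396 UMIs in the rich cells and 2093 in cells without Retnla in uninjured nerve, 1850 and 2568 at day 1, and 2250 and 2272 at day 5.

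Day 5 nerve and uninjured nerve differed in which cells held the Retnla. Cd209 genes encode C-type lectin receptors of the DC-SIGN family, and several of them mark macrophages of the epineurium, the nerve's outer layer. UMIs of any of 7 Cd209 genes were found in 342 cells of uninjured nerve, 77 cells at day 1 and 138 cells at day 5. The cells without any were 53.0% of uninjured nerve, 97.2% of day 1 and 93.3% of day 5. Cells without a Cd209 UMI held 8.96% of all Retnla UMIs in uninjured nerve, 24.6% at day 1 and 73.0% at day 5. In the cells thinned to 1000 UMIs, these shares were 11.8%, 19.2% and 72.4%. A cell without a Cd209 UMI may still express these genes below detection.

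**Figure D2:**
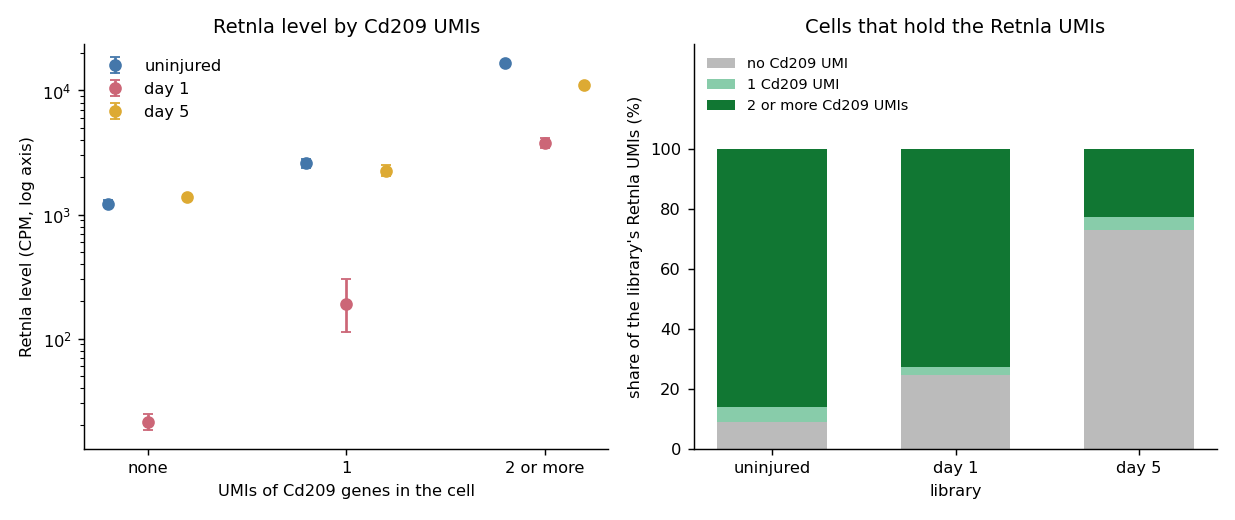
Left, Retnla level (CPM, log axis) in cells with no, 1 or at least 2 UMIs of Cd209 genes, per library, with exact 95% Poisson intervals as lines. Right, share of each library's Retnla UMIs (%) held by the same classes of cells. Cells without a Cd209 UMI hold 73.0% of the Retnla UMIs at day 5 and 8.96% in uninjured nerve, and their levels are 1395 CPM at day 5 and 1224 CPM in uninjured nerve.

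In cells without a Cd209 UMI the Retnla level was 1224 CPM in uninjured nerve (1151 to 1302), 21.3 CPM at day 1 (18.2 to 24.8) and 1395 CPM at day 5 (1363 to 1428). Day 5 was thus 1.14-fold above uninjured nerve in these cells (1.07 to 1.22), while over all cells it was 3.90-fold below. The interval leaves out the spread between cells, and only 20 of the 386 uninjured cells without Cd209 had at least 10 Retnla UMIs. The share of positive cells among them was 42.7% in uninjured nerve and 30.8% at day 5. The levels were therefore read as close, and no rise at day 5 was read from them. Day 1 was 57.4-fold below uninjured nerve (48.7 to 68.1), and day 5 was 65.4-fold above day 1 (56.1 to 76.8).

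In cells with at least 2 Cd209 UMIs the level was 16519 CPM in uninjured nerve (252 cells), 3777 CPM at day 1 (50 cells) and 10984 CPM at day 5 (83 cells). Within these cells day 1 was 4.37-fold lower than uninjured nerve (3.99 to 4.80), day 5 was 1.50-fold lower than uninjured nerve (1.44 to 1.58), and day 5 was 2.91-fold higher than day 1 (2.64 to 3.21). The cells themselves were 34.6% of the uninjured library, 1.79% of day 1 and 4.03% of day 5. After the crush both the share of such cells and the Retnla level in them were lower than in uninjured nerve. Such cells need not be of a single kind, since Cd209a, among the 7 Cd209 genes counted, is also on the dendritic cell marker list used here. Cells with a Cd209a UMI had 11079 CPM of Retnla in uninjured nerve (130 cells), 1041 CPM at day 1 (33 cells) and 2650 CPM at day 5 (51 cells). How far a changed mix of cells set these levels was not tested.

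The count of rich cells is no separate support for the shares of Retnla UMIs given above. Rich cells held 95.6% of these UMIs in uninjured nerve, 77.3% at day 1 and 90.7% at day 5. Of the cells with at least 10 Retnla UMIs, 20 of 180 had no Cd209 UMI in uninjured nerve (11.1%, 6.92 to 16.6), 4 of 18 at day 1 (22.2%, 6.41 to 47.6) and 116 of 158 at day 5 (73.4%, 65.8 to 80.1). Of all cells, 53.0% in uninjured nerve, 97.2% at day 1 and 93.3% at day 5 had no Cd209 UMI. Among these cells without Cd209 the share of rich cells was 5.18%, 0.147% and 6.04%, so it was similar in uninjured nerve and at day 5. Among cells with a Cd209 UMI it was 46.8%, 18.2% and 30.4%. Median depth in rich cells without and with Cd209 was 2346 and 2395.5 UMIs in uninjured nerve, 2655.5 and 1820 at day 1, and 2429 and 1951 at day 5. Whether depth had a part in the missing Cd209 UMIs was not tested. At day 5 the rich cells without Cd209 carried a median of 40.5 Retnla UMIs, against 50 in the rich cells with Cd209.

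The cells of all libraries were clustered together with the resistin family left out, so that Retnla had no part in the clusters. Cluster 1 was epineurial macrophage-like, led by Cd209f, Cd209g, Cd209d, Cd209b and Fcna, and had the highest Retnla level of any cluster of 20 or more cells in each library. Its level was 22452 CPM in uninjured nerve (202 cells), 10880 CPM at day 1 (27 cells) and 21561 CPM at day 5 (49 cells). The intervals at day 5 (20502 to 22661) and in uninjured nerve (22014 to 22898) overlapped. The cluster was 27.7% of the cells in uninjured nerve, 0.967% at day 1 and 2.38% at day 5. It held 86.8%, 66.9% and 15.8% of the Retnla UMIs.

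Cluster 6, led by Lilra5, Hpgd and Mgl2 and left without a name, was 495 of the 728 cells of uninjured nerve and had 1175 CPM of Retnla there. Only 4.85% of its cells were rich in Retnla, against 74.3% in cluster 1. At day 5 most cells lay in 2 clusters that were nearly missing from uninjured nerve (9 and 5 cells) and stayed without a name. Cluster 2, led by the chemokine gene Ccl8, had 2981 CPM (2878 to 3086) in 755 cells and held 32.3% of the Retnla UMIs. Cluster 3, led by the growth factor gene Gdf15 and the lipid carrier gene Apoe, had 1384 CPM (1344 to 1424) in 941 cells and held 46.8%. The 2 clusters differed in depth, with a median of 1299 UMIs in cluster 2 and 3417 in cluster 3.

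**Figure D3:**
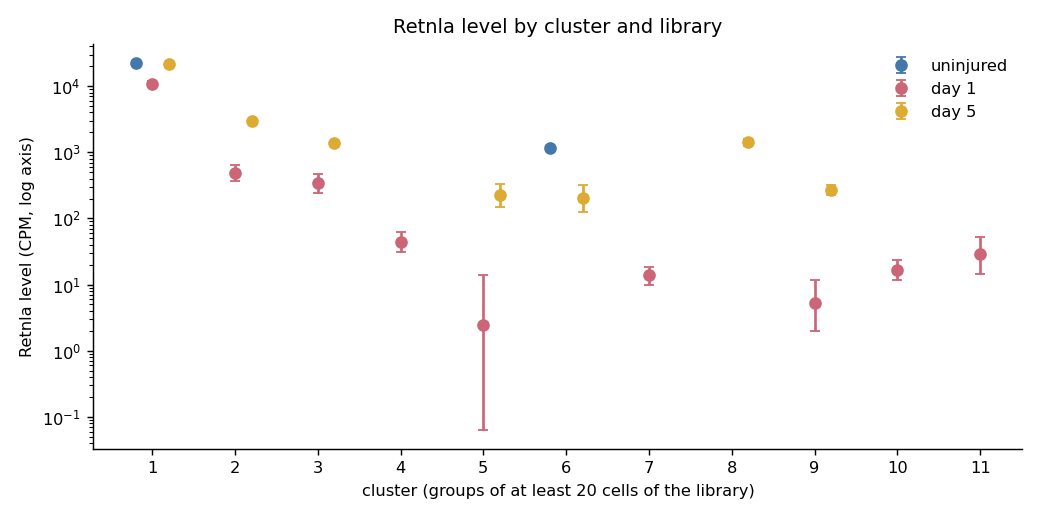
Retnla level (CPM, log axis) in each cluster with at least 20 cells of the library, with exact 95% Poisson intervals as lines. Cluster 1, the epineurial macrophage-like cells, is highest in every library, and the day 5 clusters 2 and 3 stand at 2981 and 1384 CPM, above the same clusters at day 1 (493 and 339 CPM).

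Of the 116 rich day 5 cells without Cd209, 55 were in cluster 2, 49 in cluster 3 and 4 in cluster 1. Rich cells were a minority of both large clusters, 8.34% of cluster 2 and 6.38% of cluster 3. Cluster 8, which was cycling cell-like, had 1430 CPM at day 5 with 4 of 49 cells rich. Cluster 9, whose leading genes mix those of monocytes and dendritic cells, had only 270 CPM at day 5 in 130 cells with a median of 4127 UMIs, and 1.54% of its cells were rich. Its share of positive cells, 31.5%, was nonetheless above the 27.5% of cluster 2, so no order was read from the share of positive cells.

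Clusters 4, 5, 7, 9 and 10, which together held most day 1 cells, had between 2.46 and 44.5 CPM of Retnla at day 1. Cluster 7, led by Arg1, had 13.8 CPM in 837 cells, and cluster 5, led by the interferon response genes Rsad2, Cxcl10 and Ifit3, had 1 Retnla UMI in 130 cells. Clusters 2 and 3, common at day 5, were above these at day 1 too, with 493 CPM in 72 cells and 339 CPM in 37 cells. These levels rested on 7 and 3 positive cells with 51 and 39 Retnla UMIs. In cluster 2 the level was thus 2981 CPM at day 5 against 493 CPM at day 1, and in cluster 3 it was 1384 CPM at day 5 against 339 CPM at day 1.

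Partner genes describe this in single markers. In uninjured nerve, cells with a Cd209f UMI had 18988 CPM of Retnla and cells without had 1816 CPM, a 10.5-fold difference (9.97 to 10.96). At day 1 the values were 7473 and 33.0 CPM in cells with and without Cd209f, 226-fold apart (193 to 265), and at day 5 they were 15708 and 1363 CPM, 11.5-fold apart (11.01 to 12.1). Cd209f was found in 75.6% of rich cells in uninjured nerve, 61.1% at day 1 and 24.7% at day 5. Retnla was likewise higher in cells with Cd209b, Cd209d, Cd209g, Fcna (ficolin A, a secreted lectin), Folr2 (folate receptor beta), Clec10a (a galactose-binding lectin receptor), Lyve1 (a hyaluronan receptor) and Timd4 (a receptor for phosphatidylserine) in all 3 libraries. For Cd209a the difference was 1.88-fold in uninjured nerve, 14.8-fold at day 1 and 1.52-fold at day 5, smaller than for Cd209f in each.

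Mrc1, the mannose receptor gene and a common marker of alternative activation, barely separated cells by Retnla. Cells with Mrc1 had 7648 CPM of Retnla and cells without had 6348 CPM in uninjured nerve, against 80.0 and 87.0 CPM at day 1 and 1943 and 1678 CPM at day 5. Mgl2, the gene of a lectin receptor closely related to that of Clec10a, separated them after the crush but not before. In uninjured nerve cells with Mgl2 had 6976 and cells without had 6705 CPM of Retnla, a ratio of 1.04 (0.985 to 1.10). At day 1 they had 837 and 36.6 CPM, 22.9-fold apart (19.6 to 26.8), and at day 5 they had 6824 and 992 CPM, 6.88-fold apart (6.61 to 7.16).

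Retnla was lower in cells that carried several genes of the injured nerve. Arg1 encodes arginase 1, the other classical IL-4 target of mouse macrophages. At day 1, when 84.6% of cells had an Arg1 UMI, these cells had 50.2 CPM of Retnla and cells without Arg1 had 322 CPM, 6.42-fold apart (5.50 to 7.49). At day 5 cells with Arg1 had 673 CPM and cells without had 2073 CPM, 3.08-fold apart (2.86 to 3.32). Cells with Chil3 (Ym1, a chitinase-like protein) had 8.76 CPM and cells without had 148 CPM at day 1, and none of the 18 rich day 1 cells had a Chil3 UMI.

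Spp1 (osteopontin) and Gpnmb, genes of phagocytic and lipid-laden macrophages, ran the same way at day 5. Cells with Spp1 had 1230 CPM of Retnla and cells without had 3158 CPM, and cells with Gpnmb had 705 CPM and cells without had 1984 CPM. Cx3cr1, the fractalkine receptor gene, went with less Retnla in each library, with 2247 and 7622 CPM in cells with and without it in uninjured nerve, 16.5 and 89.8 CPM at day 1 and 1062 and 2087 CPM at day 5. Ccr2, the monocyte chemokine receptor gene, went with less Retnla in uninjured nerve (4136 and 7805 CPM) and at day 1 (28.6 and 131 CPM), while the values at day 5 were closer (1585 and 1941 CPM).

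Across the cells of a library, the genes whose level went with Retnla were sought by Pearson correlation of log2(UMIs per 10000 + 1). The points are cells of 1 library and share its depth and its free RNA, so r is a description. In uninjured nerve (728 cells, 2873 genes in at least 5% of cells) the highest were Cd209f (r = 0.67), Cd209g (0.60), Ly6e (0.58), Cd209d (0.55), Fcna (0.55), Ifi27l2a (0.49), Fxyd2 (0.49) and Folr2 (0.48). Ly6e and Ifi27l2a are interferon-inducible genes, and Fxyd2 encodes a regulator of the sodium pump. The lowest were H2-Aa (-0.45), Cd74 (-0.44) and H2-Ab1 (-0.44), which encode class II antigen presentation proteins, and the immediate early gene Fos (-0.42). In all, 74 genes had r of at least 0.2.

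At day 5 (2059 cells, 3500 genes) 7 genes reached 0.2. Cd209f, Cd209g and Cd209d were in under 5% of these cells and had no r there. They were Crip1 (0.32), a small zinc-binding LIM protein gene, the eosinophil chemoattractant gene Ccl24 (0.29), Fcna (0.29), Mgl2 (0.25), Fxyd2 (0.22) and the calcium-binding protein genes S100a10 (0.22) and S100a6 (0.21). The lowest were Apoe (-0.21), Spp1 (-0.19) and the lysosomal protease genes Ctss (-0.19) and Lgmn (-0.17). At day 1 (2793 cells, 3642 genes), where the Cd209 genes, Fcna and Fxyd2 also fell under 5% of cells, Clec10a (0.28) and Mgl2 (0.20) were the 2 genes that reached 0.2, and Lgals3, the galectin 3 gene, was lowest (-0.14). Of the 25 highest genes of each library, 13 (52.0% of each list) were shared by day 5 and uninjured nerve, and Clec10a, Folr2, Ltc4s (leukotriene C4 synthase) and Pltp (phospholipid transfer protein) were among the 25 in all 3, the last pair being named here after their values had been seen.

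Without the cells that had a Cd209 UMI, the day 5 values stayed near these for Crip1 (0.30), S100a6 (0.24), S100a10 (0.21) and Apoe (-0.21), and dropped to 0.10 for Fcna and Fxyd2. In uninjured nerve r was then 0.24 for Ly6e, 0.29 for Fcna, 0.16 for Folr2 and -0.22 for H2-Aa, and at day 1 it was 0.02 for Clec10a and 0.10 for Mgl2.

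**Figure D4:**
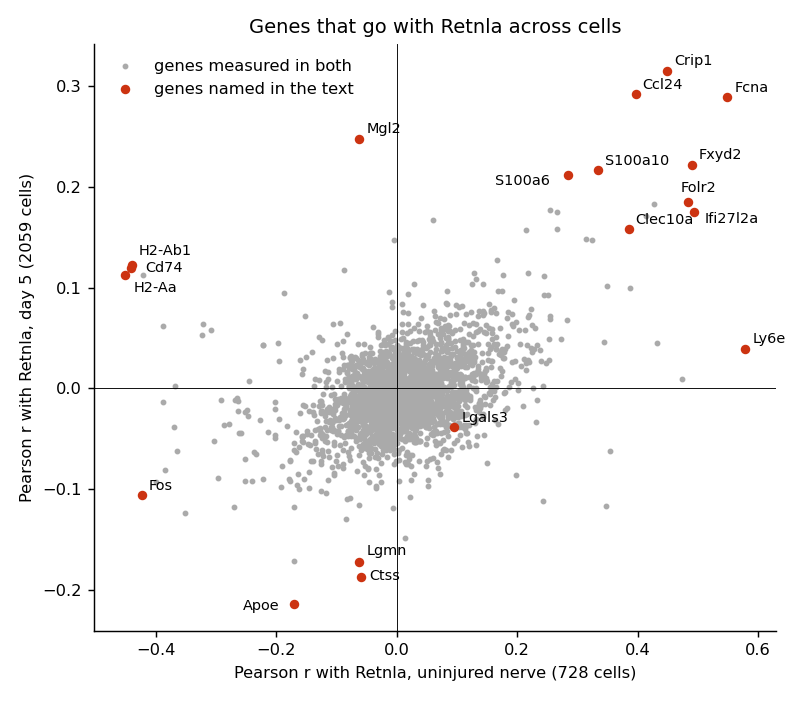
Pearson r with Retnla at day 5 (vertical axis) and in uninjured nerve (horizontal axis), 1 point per gene measured in both, with genes named in the text in red. Crip1, Ccl24, Fcna and Fxyd2 are high in both, while H2-Aa, Cd74 and H2-Ab1 lie between 0.11 and 0.12 at day 5 and between -0.45 and -0.44 in uninjured nerve.

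Some genes went with Retnla in 1 library and not in another. Ly6e had r = 0.58 in uninjured nerve, 0.02 at day 1 and 0.04 at day 5. At day 5 rich cells had 888 CPM of Ly6e and cells without Retnla had 974 CPM. In uninjured nerve rich cells had 1923 CPM and cells without Retnla had 162 CPM. Crip1 was higher in the rich cells of each library. Rich cells had 7304 CPM and cells without Retnla 2848 CPM in uninjured nerve (2.56-fold, 2.42 to 2.72), 9333 and 3372 CPM at day 1 (2.77-fold, 2.47 to 3.09), and 8203 and 2446 CPM at day 5 (3.35-fold, 3.22 to 3.49).

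Class II genes went opposite ways in the rich cells taken as a whole. In uninjured nerve, rich cells had 15801 CPM of Cd74, the invariant chain gene, and cells without Retnla had 35377 CPM, 2.24-fold lower (2.18 to 2.30). At day 1 rich cells had 6963 CPM and cells without had 3824 CPM, 1.82-fold higher (1.59 to 2.07), and at day 5 they had 16658 and 12889 CPM, 1.29-fold higher (1.26 to 1.33). H2-Aa and H2-Ab1 ran the same way as Cd74 in each library. The Cd74 level of cells without Retnla thus differed more between day 5 (12889 CPM) and uninjured nerve (35377 CPM) than that of rich cells did (16658 and 15801 CPM).

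The split by Cd209 UMIs separated the rich cells in the same genes, and after the crush the higher class II level lay mostly in the rich cells without Cd209. At day 1 the 4 rich cells without Cd209 held 149 of the 235 Cd74 UMIs and had 14818 CPM. The 14 with Cd209 had 3629 CPM (2903 to 4482), near the 3824 CPM of cells without Retnla. H2-Ab1 was at 7459 CPM in those 4 cells, 1182 CPM in the 14 and 1822 CPM in cells without Retnla. H2-Aa was at 6763 CPM in the 4 cells and 1815 CPM in the 14 (1313 to 2444), beside 1571 CPM in cells without Retnla. At day 5 the 116 rich cells without Cd209 had 17899 CPM of Cd74 and the 42 with Cd209 had 12572 CPM, beside 12889 CPM in cells without Retnla. H2-Aa was at 10025 CPM in the 116 and 6629 CPM in the 42, beside 6527 CPM in cells without Retnla. In uninjured nerve the 20 rich cells without Cd209 had 30862 CPM and the 160 with Cd209 had 13771 CPM. At day 5 Fcna was at 75.7 CPM in rich cells without Cd209, 1475 CPM in rich cells with Cd209 and 38.7 CPM in cells without Retnla. Folr2 was at 555, 2099 and 320 CPM, and Ccl24 at 338, 1216 and 77.1 CPM in the same classes. S100a6 and S100a10 were instead highest in the rich cells without Cd209, at 1915 and 1492 CPM, against 784 and 493 CPM in cells without Retnla.

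**Figure D5:**
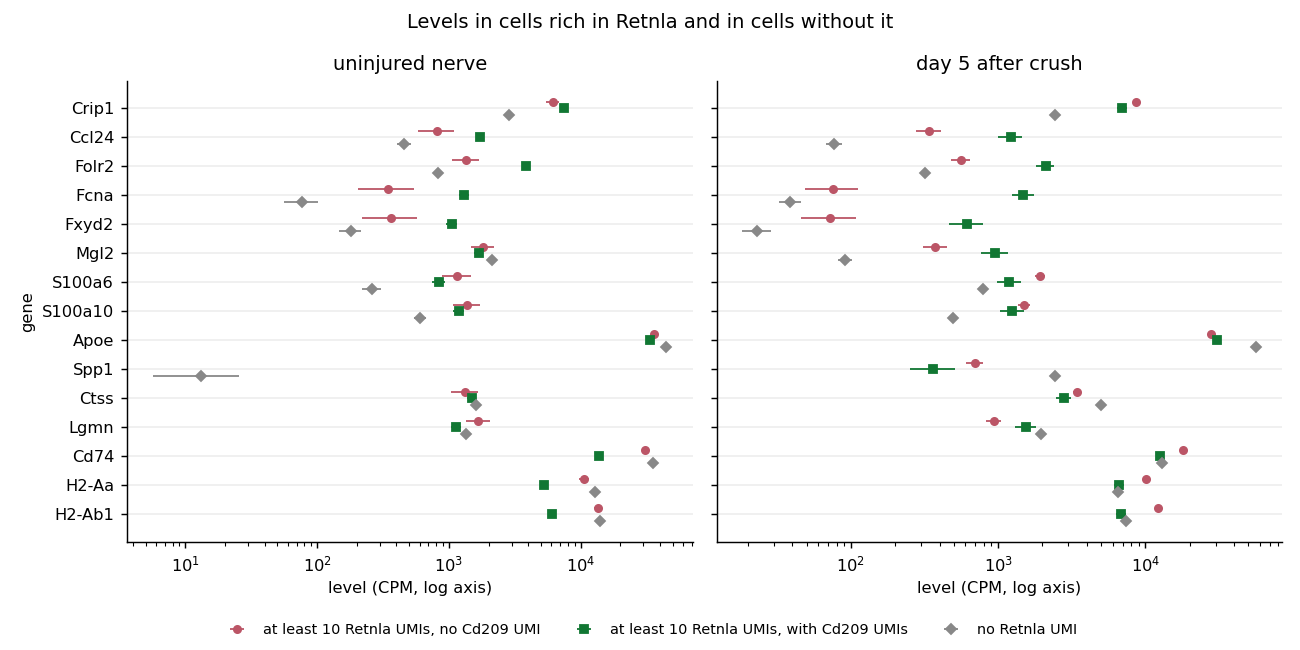
Levels (CPM, log axis) of 15 genes in cells with at least 10 Retnla UMIs and no Cd209 UMI (circles), in cells with at least 10 Retnla UMIs and Cd209 UMIs (squares) and in cells without a Retnla UMI (diamonds), in uninjured nerve (left) and at day 5 (right), with exact 95% Poisson intervals as lines; a level of 0 is not drawn. At day 5 Fcna, Folr2 and Fxyd2 are highest in the rich cells with Cd209, Crip1 and S100a6 in those without, and Apoe and Spp1 in cells without Retnla.

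Apoe and Spp1 were lower in both kinds of rich cell at day 5. Apoe was at 28431 CPM in rich cells and 56716 CPM in cells without Retnla, 1.99-fold lower (1.96 to 2.03), and Spp1 was at 617 and 2439 CPM, 3.95-fold lower (3.49 to 4.50). Arg1 was at 46.0 and 223 CPM, 4.85-fold lower (3.09 to 8.11). Ctss and Lgmn were 1.53-fold (1.44 to 1.61) and 1.83-fold lower (1.66 to 2.02) in the rich cells.

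The genes of the IL-4 and IL-13 pathway were scarce or moderate. Il4 had 4 UMIs in uninjured nerve, 0 at day 1 and 1 at day 5, and Il13 and the decoy receptor gene Il13ra2 had 0 in all 3 libraries. Il4ra was at 40.4 CPM in uninjured nerve, 128 CPM at day 1 and 78.2 CPM at day 5, so it was 3.16-fold higher at day 1 than in uninjured nerve (2.47 to 4.11), where Retnla was 82.4-fold lower. Il13ra1, the other chain of the receptor for IL-13, was at 56.7, 24.9 and 17.7 CPM. Stat6 was at 42.3, 33.9 and 30.6 CPM. Socs3, a feedback inhibitor of cytokine signalling, was at 909, 151 and 202 CPM. Of the 15 genes of the list, 5 had at least 50 CPM in uninjured nerve or at day 1, and of these 1 was higher and 2 were lower by 2-fold or more at day 1 (background 18.7% and 12.6%). For day 5 against uninjured nerve, 0 of 5 were higher and 2 lower (background 7.89% and 9.56%), and for day 5 against day 1, 0 of 4 passed in either direction (background 3.38% and 6.41%).

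Within a library the median over the few members of this list that could be compared was lower in the cells rich in Retnla. At day 5 Il4ra was at 77.4 CPM in rich cells and 83.4 CPM in cells without Retnla, and in uninjured nerve at 16.0 CPM (7 UMIs) and 50.6 CPM. At day 1 it was at 237 CPM in rich cells (8 UMIs) and 126 CPM in cells without Retnla, a ratio of 1.88 (0.809 to 3.72). Stat6 was at 36.3 CPM in rich cells and 29.9 CPM in cells without Retnla at day 5, and at 27.4 and 37.5 CPM in uninjured nerve. The list's median log2 ratio of rich cells over cells without Retnla was -0.40 in uninjured nerve, -0.35 at day 1 and -0.29 at day 5, beside 0.11, 0.35 and 0.02 over all genes tested. These medians rest on only 5, 5 and 4 of the 15 members, those with at least 50 CPM on either side, and do not describe the whole pathway. Stat6 was not among them in uninjured nerve or at day 5. At day 1 Irs2 and Jak1 had 2 UMIs each in the rich cells, and Irs2 reached 50 CPM only there (59.3 CPM against 12.7 CPM).

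Of 11 transcription factor genes linked to alternative activation, Cebpb, a C/EBP gene, was at 715 CPM in uninjured nerve, 332 CPM at day 1 and 741 CPM at day 5. It was thus lowest where Retnla was lowest, and 2.23-fold higher at day 5 than at day 1 (2.13 to 2.35). Within libraries it did not mark the rich cells, with 607 CPM in rich cells and 752 CPM in cells without Retnla at day 5 and 719 and 756 CPM in uninjured nerve. Klf4 was at 647, 244 and 209 CPM in uninjured nerve, day 1 and day 5, and Egr2 was at 313, 64.0 and 79.1 CPM. Of the 7 members at 50 CPM or more, 1 was higher and 3 were lower by 2-fold or more at day 1 against uninjured nerve (background 18.7% and 12.6%), 0 and 2 at day 5 against uninjured nerve (7.89% and 9.56%), and 1 and 0 at day 5 against day 1 (3.38% and 6.41%).

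The 22 genes of the alternative activation list did not share the course of Retnla. Arg1 was at 0.604 CPM in uninjured nerve (1 UMI), 4483 CPM at day 1 and 209 CPM at day 5, and Chil3 was at 9.66, 702 and 54.1 CPM, so both were highest where Retnla was lowest. Mgl2 was at 1868, 69.6 and 137 CPM, Clec10a at 417, 67.8 and 136 CPM and Folr2 at 1651, 191 and 369 CPM, and these had the same order of libraries as Retnla. Ccl24 was at 766, 638 and 113 CPM and was lowest at day 5. Day 1 against uninjured nerve had 5 of 17 members that were higher by 2-fold or more and 7 that were lower (background 18.7% and 12.6%), with a median log2 ratio of -0.36 against 0.25 over all genes. Day 5 against uninjured nerve had 6 of 16 higher and 8 lower (background 7.89% and 9.56%), with a median of -0.94 against 0.07. Day 5 against day 1 had 3 of 15 higher and 6 lower (background 3.38% and 6.41%), with a median of -0.38 against -0.19.

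Cell by cell the list stood closer to Retnla. In rich cells over cells without Retnla, 8 of 13 members were at least 2-fold higher and 0 lower in uninjured nerve (background 14.5% and 11.1%), with a median log2 ratio of 1.33 against 0.11 over all genes. At day 1, 10 of 17 were higher and 3 lower (background 28.6% and 13.9%), and at day 5, 7 of 15 were higher and 1 lower (background 4.51% and 4.35%), with a median of 0.60 against 0.02. Some higher members reached 50 CPM only in the rich cells, so being counted already favoured a higher level there. At day 5 these included Cd163 (72.6 CPM in rich cells, 26.2 CPM in cells without Retnla), Ear2 (55.7 and 15.4 CPM) and Cd36 (84.7 and 39.3 CPM). At day 1 they included Cd163, Igf1 and Ear2, the last with 3 UMIs in the rich cells. The background was counted by the same rule. The member lower at day 5 was Arg1. At day 1 Il1rn, Tgm2 and Chil3 were lower, with 1, 1 and 0 UMIs in the rich cells. In uninjured nerve Ccl17 and Ccl22, chemokine genes typical of dendritic cells, counted among the 8 higher ones through 1 rich cell. Several of these genes are also among the listed markers of epineurial macrophages. Plod2, a collagen lysyl hydroxylase gene that resistin-like alpha is known to induce in mouse fibroblasts, had 0, 0 and 5 UMIs in these macrophage libraries.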

How the data were processed

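The authors deposited UMI counts per gene and cell barcode, 1 table per sample, not normalized, in which every value is a whole-number count. Per the submitters' processing notes, Cell Ranger 2.0.2 and build mm10 were used, and per the labels the chemistry was 10x Genomics version 1. The sources used here do not give the cell calling or any treatment of free RNA before deposit. A deposited table that pools the libraries holds between 94.2% and 100% of each library's UMIs and served only as an alternative.

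Barcodes with at least 200 genes and at most 10% mitochondrial UMIs were kept, which removed 3, 3 and 0. Scrublet (scanpy 1.11.5) marked 18 of 5580 cells, too few to rely on, so no cell was left out as a doublet and doublets remain possible in every result. CPM came from UMIs summed over cells. Intervals at 95% are exact Poisson for CPM, exact Clopper-Pearson for shares and exact conditional binomial for ratios (scipy 1.17.1). Ratios over all genes used genes with at least 50 CPM in either side. Cells were clustered jointly without integration (Leiden, resolution 1, 2000 variable genes without the resistin family, 30 components, 15 neighbours; python-igraph 0.11.9). A cluster took a name where at least 3 markers of 1 class stood at least 2-fold above the other clusters and at least 2 were among its 10 leading genes.

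Named genes were, per library, the 8 highest and 4 lowest by r, where r was at least 0.2 or at most -0.1, plus members of the gene lists. Some list members were named although they stayed below 50 CPM in every library, among them Stat6, Irs2, Ear2, Ccl22 and Il4. Hemoglobin, immunoglobulin, ribosomal protein, mitochondrial and predicted genes were left out of the ranking by r. The values of 1 gene of the transcription factor list are not reported here. Of the markers, 4 were not found in the tables under their names (Pclaf, Trac, Trbc1, Trbc2). Retnla, the gene lists and the partner genes were chosen with earlier results of these data known, and the split by Cd209 UMIs and the limit of 10 Retnla UMIs were added after seeing the data. The ratio and correlation steps were tested on simulated data. Promoter windows and gene coordinates come from RefSeq and GENCODE, build GRCm38, and 3 of 4 family members had a promoter window. Alternatives covered cell filters, doublets, depth, source table, scaling, likeness and clustering.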

Additional observations from a re-analysis of the deposited data

Results flagged for a closer look

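These results stand out because a gene was higher in 1 library and lower in another library when cells with at least 10 Retnla UMIs were set against cells without a Retnla UMI. Each value is the ratio of the CPM in the cells rich in Retnla to that in cells without it, and no difference between libraries was tested, since there was 1 library per group. Only 18 cells were rich at day 1.

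The class II genes were higher in rich cells after the crush and lower in rich cells of uninjured nerve. After the crush this lay mostly in the rich cells without Cd209, which were 4 cells at day 1. In the rich cells with Cd209, Cd74 was at 3629 CPM at day 1 (2903 to 4482), beside 3824 CPM in cells without Retnla. At day 5 it was at 12572 CPM (11874 to 13301) beside 12889 CPM. H2-Ab1 was at 1182 CPM beside 1822 CPM at day 1, and at 6785 CPM beside 7323 CPM at day 5. H2-Aa was at 1815 CPM (1313 to 2444) beside 1571 CPM at day 1, and at 6629 CPM (6124 to 7164) beside 6527 CPM at day 5. Both of these H2-Aa intervals included the level of cells without Retnla. Cd74 had a ratio of 1.82 at day 1 (1.59 to 2.07) and 1.29 at day 5 (1.26 to 1.33), against 0.447 in uninjured nerve (0.435 to 0.459). H2-Aa had 2.09 at day 1 (1.72 to 2.52) and 1.41 at day 5 (1.37 to 1.46), against 0.460 in uninjured nerve (0.440 to 0.481). H2-Ab1 had 1.67 at day 1 (1.37 to 2.03) and 1.49 at day 5 (1.45 to 1.54), against 0.499 in uninjured nerve (0.479 to 0.520).

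Mgl2, a lectin receptor gene, had a ratio of 10.3 at day 1 (6.47 to 15.6) and 5.59 at day 5 (4.67 to 6.67), against 0.8004 in uninjured nerve (0.730 to 0.877). Lgals3, the galectin 3 gene, went the other way, with 0.204 at day 1 (0.142 to 0.283) and 0.895 at day 5 (0.831 to 0.962), against 1.91 in uninjured nerve (1.54 to 2.37). Apoe had 1.49 at day 1 (1.36 to 1.62) against 0.758 in uninjured nerve (0.743 to 0.773), and 0.501 at day 5 (0.492 to 0.511) against 1.49 at day 1. The higher Apoe at day 1 lay in the 14 rich cells with Cd209, at 20722 CPM. The 4 rich cells without Cd209 had 5172 CPM, below the 10816 CPM of cells without Retnla.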

How the results depend on the processing

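No paired analysis was possible because there was 1 library per group and no test. With a stricter cell filter (500 genes, 5% mitochondrial UMIs) the Retnla level was 6416 CPM in uninjured nerve and 1696 CPM at day 5, positive cells had a mean of 27.6 and 14.95 UMIs, and the log2 ratio of day 5 over uninjured nerve was -1.92. With scrublet calls left out uninjured nerve had 6773 CPM and a mean of 26.1 UMIs, and that ratio was -1.92. Without the deepest 5% of cells day 1 had 95.2 CPM and day 5 had 1931 CPM, the means were 25.8 UMIs in uninjured nerve and 14.9 at day 5, cells without Cd209 held 71.8% of the day 5 Retnla, and the log2 ratios over uninjured nerve were -6.20 at day 1 and -1.86 at day 5. Without cells that carried markers of another cell type the levels were 7068 CPM in uninjured nerve and 1816 CPM at day 5. Median-of-ratios scaling gave -1.92 for day 5 over uninjured nerve.

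Without cells that had a Cd209 UMI the log2 ratio of day 5 over uninjured nerve was 0.19, a change of sign at close levels. The log2 ratio of day 1 over uninjured nerve was -5.84 and that of day 5 over day 1 was 6.03. The levels were then 1224, 21.3 and 1395 CPM in uninjured nerve, day 1 and day 5, the mean UMIs per positive cell 6.24, 2.89 and 12.1, and the shares of positive cells 42.7% in uninjured nerve and 2.10% at day 1. Without the 10 cells richest in Retnla the levels were 5815, 31.5 and 1458 CPM, and the log2 ratios were -7.53 for day 1 over uninjured nerve and 5.53 for day 5 over day 1.

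Thinned to 1000 UMIs per cell, the shares of positive cells were 43.3%, 2.003% and 20.3% in uninjured nerve, day 1 and day 5, the means 15.5, 6.98 and 10.4 UMIs, and cells without Cd209 held 11.8% of the Retnla in uninjured nerve and 19.2% at day 1. The log2 ratio of cells with over cells without Cd209f was then 7.44 at day 1 and 3.68 at day 5. The main counts of genes with r of at least 0.2 were 74, 2 and 7. They were 34, 1 and 4 after thinning, 6, 0 and 3 without cells that had Cd209, 0 at day 1 and 1 at day 5 with Spearman's rho, and 93 at day 1 and 17 at day 5 among positive cells only. The cluster with the most Retnla held 83.5%, 62.6% and 81.5% of it at resolution 0.5, and 84.0%, 59.9% and 38.6% when Cd209 and alternative activation genes were also left out of the clustering. Beyond these settings, the other 99 alternatives of the main values stayed within their interval or within 1.5 times of the main count. Among single correlations under these alternatives 24 moved, 77 did not and none changed its sign, and the cause of these shifts was not tested. Free RNA, doublets and 18 rich day 1 cells limit what low levels can show.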

Other observations

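Some genes kept 1 direction relative to Retnla in all 3 libraries, and these were picked after their values had been seen. Trem2, the gene of a lipid-sensing receptor of macrophages, was lower in cells with at least 10 Retnla UMIs than in cells without Retnla, 1.99-fold in uninjured nerve (1.57 to 2.55), 1.86-fold at day 1 (1.04 to 3.73) and 1.99-fold at day 5 (1.75 to 2.26). Timp2, a metalloproteinase inhibitor gene, was higher in the rich cells, 2.76-fold, 7.26-fold and 1.65-fold in uninjured nerve, day 1 and day 5, and Pltp was 2.47-fold, 12.9-fold and 2.17-fold higher. Ccl8 was 4.64-fold higher in the rich cells of uninjured nerve and 6.93-fold higher at day 1, while at day 5 rich cells had 707 CPM and cells without Retnla had 767 CPM. Whether these ratios differ between libraries was not tested.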
